A study of Danio rerio with 21 samples.

Results

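The genes of antigen presentation by the major histocompatibility complex (MHC) were followed through single labelled cells of zebrafish (Danio rerio) from 21 libraries. Members were all features whose symbol starts with mhc1 (19 genes) or mhc2 (5 genes), together with cd74a, cd74b, b2m, b2ml, ciita, tap1, tap2a, tap2t, tapbp.1, tapbp.2 and canx (11 genes), which made 35 of the 27758 features counted. The rule used symbols only, but it was set with earlier results of these data known. Cells carried a permanent mCherry label which, per the study's design, was given to blood stem and progenitor cells (HSPCs) on 1 of 3 days: it is called early when given at 1 dpf (days post fertilization), mid at 2 dpf and late at 3 dpf. Sorted mCherry cells were sequenced at later ages. Larval libraries came from the early label at 2, 6 and 10 dpf, the mid label at 3, 6 and 10 dpf and the late label at 4, 6 and 10 dpf. Libraries of crispants, which are animals mosaic for Cas9 edits in 1 gene, came from fish labelled early and collected at 8 dpf: R848-treated slc24a5 and rag1 crispants, given 25 µM R848 (resiquimod, a Toll-like receptor agonist) at 6 dpf, and untreated slc24a5 and rag1 crispants. The gene slc24a5 acts in pigmentation and rag1 in antigen receptor recombination, and slc24a5 editing served as the control. Adult libraries came from kidney marrow, intestine, thymus and the tessellated lymphoid network (TLN, a lymphoid tissue of the skin) of fish of 4 months, for both the early and the late label. Each group had 1 library. The promoter that drove the label, and so the cells it marked, and the number of fish per library, are not given in the sources used here, and adult libraries of 1 label may share fish.

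Class I molecules are heavy chains joined to beta-2-microglobulin (b2m, b2ml) that show peptides from inside the cell to CD8 T cells. The TAP transporter (tap1, tap2a, tap2t) brings peptides into the endoplasmic reticulum, where tapasin (tapbp.1, tapbp.2) and the chaperone calnexin (canx) help the heavy chain fold and load. Class II molecules are pairs of alpha and beta chains (mhc2 genes) that show peptides from engulfed material to CD4 T cells, and dendritic cells, macrophages and B cells are their usual carriers. The invariant chain (cd74a, cd74b) escorts new class II molecules, and ciita is the master activator of class II genes in mammals. Zebrafish class I heavy chains fall into the U, Z and L lineages, of which U holds the classical genes. MHC genes are known to differ between haplotypes.

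Libraries held 8303823 to 150042529 unique molecular identifiers (UMIs, each a counted mRNA molecule) in 782 to 28990 barcodes. Of 200415 cells that passed the filters, 185886 were kept after cells with doublet-like profiles were left out, and 27869 of these (15.0%) lay in clusters that no marker list named. Pairs of libraries shared at most 203 barcodes (early- and late-labelled kidney marrow) and at most 0.977% of the smaller library (79 barcodes, early-labelled kidney marrow and intestine). The edited gene rag1 stood at 4.21 and 1.86 CPM (UMIs of the gene per 1000000 UMIs) in R848-treated slc24a5 and rag1 crispants, against 7.35 and 3.09 CPM in untreated slc24a5 and rag1 crispants, so it was lower in the rag1 libraries of both treatments. With slc24a5 at 0.139 to 0.370 CPM, that gene gave no check. No cluster met the markers for dendritic cells, and muscle and epithelial cells were too few to be tested. T/NK cells made up 62.3% and 63.5% of kept cells in early- and late-labelled intestine and 49.5% and 43% in thymus, but 1.24% and 0.966% in the TLN, where erythroid cells made up 96.7% and 96.4%.

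Of the 35 members, 28 had at least 100 UMIs over all kept cells. The other 7 (mhc1lja, mhc2dbb, mhc1uma, mhc1lga, mhc1lfa, mhc1lba and mhc1lla) had 74, 50, 30, 23, 20, 14 and 8 UMIs and gave no comparison. The counts behind the values were 658608 UMIs for cd74a, 637495 for b2m, 472097 for b2ml, 369169 for the Z-lineage heavy chain mhc1zba, 274294 for cd74b, 256834 for mhc2a and 176239 for mhc2dab. Among the remaining class II chains, mhc2bl had 2885 UMIs and mhc2b had 1068. How reads that match several paralogs were counted is not given in the sources used here, so values of single mhc1 and mhc2 genes are uncertain where their sequences are alike.

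Class II chains, summed over their 5 genes, marked B cells, macrophages and lymphocytes in adults and were low in red cells. In adult B cells they stood at 2721 and 4075 CPM in kidney marrow and thymus with the early label and at 2288 and 4363 CPM with the late label. Adult T-lineage and NK or innate lymphoid cells together (T/NK below) had 936, 849, 1472 and 849.7 CPM in kidney marrow, intestine, thymus and TLN with the early label, and 837, 1082, 1356 and 1082 CPM with the late label. Every one of these 8 values lay above all erythroid values. Erythroid cells had 45.7, 57.7, 143 and 8.75 CPM in the same 4 tissues with the early label. With the late label they had 76.1 and 2.85 CPM in kidney marrow and TLN. The TLN set T/NK and erythroid cells apart most clearly, with 849.7 CPM in early-labelled T/NK cells (exact Poisson interval 809 to 892 CPM, at the 95% level and for counting error only) and 8.75 CPM in erythroid cells (7.97 to 9.59 CPM). The part of free RNA in the values of either class was not tested. Adult HSPC-named cells had 982 and 1101 CPM in early-labelled kidney marrow and intestine and 1095 CPM in late-labelled intestine.

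Adult macrophages were the most uneven class. Their class II sum was 15524 CPM in early-labelled and 16231 CPM in late-labelled thymus, 1958 and 1510.0 CPM in kidney marrow, and 276 and 784 CPM in intestine. Thymic macrophages thus carried more than any named class elsewhere, while the intestinal ones lay below the T/NK cells of their own tissue. In the thymus the macrophage class joined unlike clusters: cluster 3, led by tppp, ccl34b.1 and grn1, had 21847 and 26162 CPM (early, late label), and cluster 16 had 2512 and 3619 CPM. In kidney marrow nearly all early-labelled macrophages formed cluster 11 (1140 of 1152 cells) and nearly all late-labelled ones cluster 19 (660 of 671 cells), so the label comparison there is also one of clusters. The intestinal values rest on 80 and 98 cells.

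Single class II genes followed the same order. In macrophages, mhc2a had 1015, 98.2 and 8633 CPM in kidney marrow, intestine and thymus with the early label and 855, 285 and 9359 CPM with the late label, and mhc2dab had 941, 163 and 6771 CPM with the early label and 652, 495 and 6710.2 CPM with the late label. In B cells, mhc2a had 1604 and 2905 CPM in kidney marrow and thymus with the early label and 1374 and 3162 CPM with the late label. The gene mhc2bl was nearly limited to adults: over all kept cells it had 49 and 65.5 CPM in early- and late-labelled thymus and 0 to 0.289 CPM in the 13 larval and crispant libraries. The gene mhc2b did not share the pattern, with 1.21 and 1.97 CPM in thymus, 1.52 CPM in early-labelled larvae at 2 dpf and a range of 0.266 to 2.23 CPM over all 21 libraries.

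The invariant chain ran parallel. Summed over cd74a and cd74b it had 7294 and 12089 CPM in early-labelled B cells of kidney marrow and thymus and 6749 and 13235 CPM in late-labelled ones. In T/NK cells of kidney marrow, intestine, thymus and TLN it had 1685, 1558, 2981 and 1522 CPM with the early label and 1719, 1898, 2621 and 1745 CPM with the late label. Thymic macrophages stood highest among the named classes, with 33958 CPM (early) and 29286 CPM (late), and intestinal macrophages had 92 and 891 CPM. The activator ciita did not rank the classes the same way. In intestine it had 38.4 and 46.7 CPM in early- and late-labelled T/NK cells and 40.9 and 39 CPM in HSPC-named cells, against 6.42 and 5.1 CPM in T/NK cells of kidney marrow. B cells had 34.6 and 33 CPM in thymus and 8.72 and 12.5 CPM in kidney marrow, and thymic macrophages 12.1 and 28.9 CPM. T/NK cells of intestine thus exceeded those of kidney marrow in ciita under each label, where their class II sums lay within 837 to 1082 CPM.

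**Figure D1:**
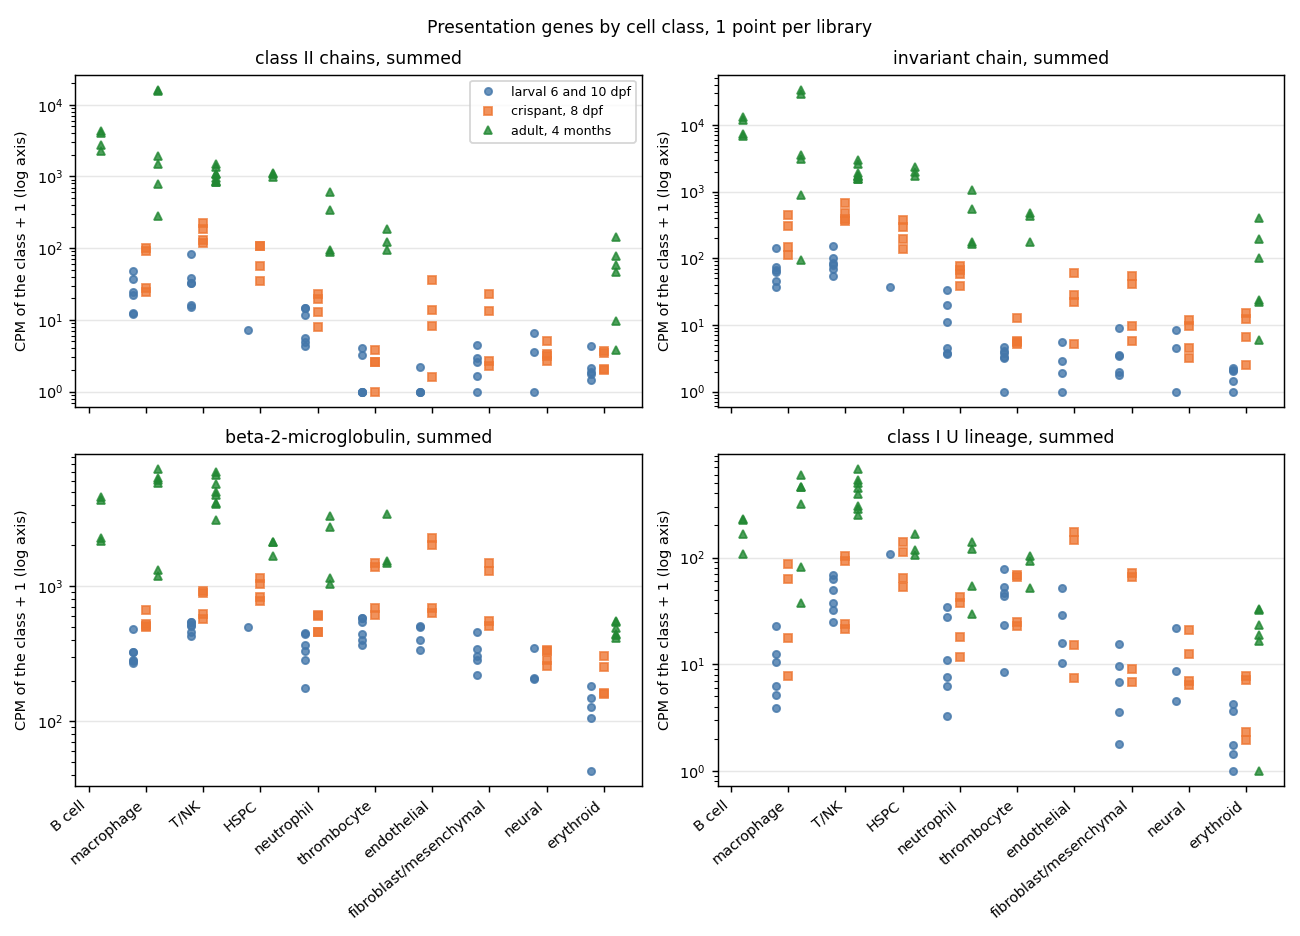
Levels of class II chains, invariant chain, beta-2-microglobulin and U-lineage heavy chains in each cell class, as CPM + 1 on a log axis, with 1 point per library of at least 50 cells of the class (circles larval at 6 and 10 dpf, squares crispant, triangles adult). Adult T/NK cells had 837 to 1472 CPM of class II chains, above the 2.85 to 143 CPM of adult erythroid cells, and adult points lie above larval ones in most classes.

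Several clusters without a name also carried much class II message. In the thymus, cluster 14 (led by epdl1, sftpbb and ccl35.2) had 34188 and 44237 CPM of class II chains and 78908 and 96484 CPM of invariant chain with the early and late label, from 139 and 34 cells. Thymus cluster 22 had 17782 and 30708 CPM of class II chains, and cluster 10 had 10592 and 12349 CPM. With each label, clusters 14 and 22 lay above the thymic macrophage class (15524 and 16231 CPM with the early and late label), and cluster 10 lay below it. In kidney marrow, cluster 20, led by ccl35.1, had 2755 and 4286 CPM. In intestine, cluster 22 had 5409 and 5479.7 CPM and cluster 14, led by lyz and ccl35.1, had 3152 and 5381 CPM. In the TLN, cluster 7, led by cd74a and mhc2a themselves, had 6127 CPM from 62 early-labelled cells. These clusters met too few fixed markers for a name, and members were left out of the genes that formed the clusters.

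Beta-2-microglobulin was present in every class, and T/NK cells and the macrophages of thymus and intestine had the most among adult classes. In macrophages, b2m and b2ml together had 1309, 6092 and 6354 CPM in kidney marrow, intestine and thymus with the early label and 1195, 5782 and 7379.6 CPM with the late label. Intestinal macrophages, low in class II chains, thus lay near thymic ones here. The sum in adult T/NK cells was 4066, 4725, 7052 and 5725 CPM in kidney marrow, intestine, thymus and TLN with the early label and 3106, 4103, 6611 and 4961 CPM with the late label. Adult erythroid cells had 436, 415, 553 and 438 CPM in the same tissues with the early label and 486 and 539 CPM in kidney marrow and TLN with the late label. The copies differed in how far red cells lay below lymphocytes. In larvae with the early label, b2m had 168 and 229.6 CPM in T/NK cells at 6 and 10 dpf, against 4.42 and 2.3 CPM in erythroid cells. The copy b2ml had 287 and 283 CPM in the same T/NK cells and 101 and 178 CPM in erythroid cells. Red cells were thus low in b2m and less so in b2ml.

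Class I heavy chains split by lineage. The U-lineage sum (mhc1uba, mhc1uka and mhc1uma) was highest in adult T/NK cells and in macrophages of thymus and intestine: T/NK cells had 250.3, 306, 445 and 536 CPM in the 4 tissues with the early label and 285, 389.7, 503 and 677 CPM with the late label, while macrophages of kidney marrow, intestine and thymus had 36.3, 319 and 458 CPM with the early label and 80.9, 454 and 595 CPM with the late label. The Z-lineage sum was instead highest in thrombocytes among larval cells: they had 652 and 527 CPM at 6 and 10 dpf with the early label, 601 and 638 CPM with the mid label and 621 and 862 CPM with the late label. Larval T/NK cells had 339.7, 375, 347, 389, 271 and 445 CPM in the same order of libraries. Thrombocytes lay above T/NK cells in each of these 6 libraries. Adult T/NK cells had 949 to 2028 CPM over 8 libraries.

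The L lineage was scarce, with 1 exception in macrophages. The gene mhc1lda had 95.5 and 87.5 CPM in thymic macrophages with the early and late label, 20.1 and 4.88 CPM in kidney marrow macrophages and 55.6 and 45.1 CPM in macrophages of R848-treated crispants, beside 45 and 58.8 CPM in untreated ones. Larval macrophages of the late label had 61.9, 6.43 and 8.57 CPM at 4, 6 and 10 dpf. In adult T/NK cells it had 0 to 0.268 CPM and in adult B cells 0 to 2.15 CPM. In intestinal macrophages it had 0 UMIs under both labels, which allow up to 9.2 and 6.11 CPM. Macrophages of different tissues thus differed in this gene as well.

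Among the loading genes, tap1 was higher in larval T/NK cells (19.1 to 30.4 CPM over the 6 libraries at 6 and 10 dpf) than in larval macrophages (4.54 to 18.6 CPM), with no overlap. The chaperone canx ranked the other way, with 89.6 to 159 CPM in T/NK cells and 167 to 244 CPM in macrophages. The share of all features that separate these larval classes was not counted. Over 35 members, 20 had more CPM in every adult T/NK sum than in every adult erythroid sum, where 10.9% of all 27758 features did. The 35 include the 7 members with almost no UMIs.

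Class II genes were near 0 in the youngest larvae and highest in adult thymus. In all kept cells, cd74a had 0 UMIs at 2 dpf with the early label, which allow up to 0.198 CPM, 1.33 CPM at 3 dpf with the mid label and 2.24 CPM at 4 dpf with the late label. At 6 and 10 dpf it had 78.2 and 39.7 CPM (early label), 33.2 and 36.4 CPM (mid) and 25 and 46.4 CPM (late). Adult tissues had 758, 994, 10682 and 175 CPM in kidney marrow, intestine, thymus and TLN with the early label and 678, 1434, 9425 and 67.2 CPM with the late label. The libraries at 2 to 4 dpf lay below all 18 others. The alpha chain gene mhc2a likewise had 0 UMIs at 2 dpf, 1.33 CPM at 3 dpf and 0.968 CPM at 4 dpf, and 11.1 to 51.2 CPM over the 6 libraries at 6 and 10 dpf. Named macrophages numbered 1 and 6 in the libraries at 2 and 3 dpf, so the makeup of the cells differed too.

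Class I genes were present from the start. At 2 dpf with the early label, b2m had 49 CPM and b2ml 49.4 CPM, and mhc1zba had 48.7 CPM. At 6 and 10 dpf, mhc1zba had 132 to 337 CPM over 6 libraries, and adults had 382 to 949 CPM over 8. The classical gene mhc1uka stood apart, at 0.102 to 1.71 CPM in the 9 larval libraries, 9.11 and 9.59 CPM in R848-treated slc24a5 and rag1 crispants beside 2.01 and 1.96 CPM in untreated ones, and 16.4 to 209 CPM in the 8 adult libraries. Its larval and adult values did not overlap, also within T/NK cells (0 to 3.73 CPM in larvae at 6 and 10 dpf and 100.4 to 335 CPM in adults). The other U-lineage gene with many counts, mhc1uba, also had no overlap, with 20.1 to 67.5 CPM in larval and 135 to 342 CPM in adult T/NK cells. The share of all features without overlap between larvae and adults was not counted. Calnexin over all kept cells was instead lower in adults, with 153 CPM at 2 dpf and 9.95 to 61 CPM in adults. The makeup of the cells also differed between these libraries. Age cannot be told apart from the kit (version 3.1 for larval, version 4 for crispant and adult libraries), the Cell Ranger version or the fish.

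Within T/NK cells the class II sum differed between stages: 14.9 and 31.9 CPM at 6 and 10 dpf with the early label, 31.7 and 37.3 CPM with the mid label, 14.2 and 83 CPM with the late label, 118 and 128 CPM in untreated crispants at 8 dpf, and 837 to 1472 CPM in adults. The crispants at 8 dpf thus lay above all larval libraries at 10 dpf. Crispant T/NK cells include cluster 13, which is rich in class II message and whose name is uncertain. It made up 6.04% and 14.2% of T/NK cells in untreated slc24a5 and rag1 crispants. Larval erythroid cells had 0.461 to 3.33 CPM at 6 and 10 dpf. Larval macrophages had 36.4, 23.7, 21.1, 11.2, 11.6 and 46.9 CPM (early 6 and 10 dpf, mid 6 and 10 dpf, late 6 and 10 dpf), of the same order as larval T/NK cells. The highest larval class II levels by cluster were those of unnamed cluster 23, led by ccl35.1, grn1 and ccr9a, where class II chains had 763 and 1364 CPM with the early label, 529.5 and 605 CPM with the mid label and 163 and 499 CPM with the late label at 6 and 10 dpf. That cluster had 107, 79, 64, 63, 27 and 37 cells in the same order, and no test was made on it.

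**Figure D2:**
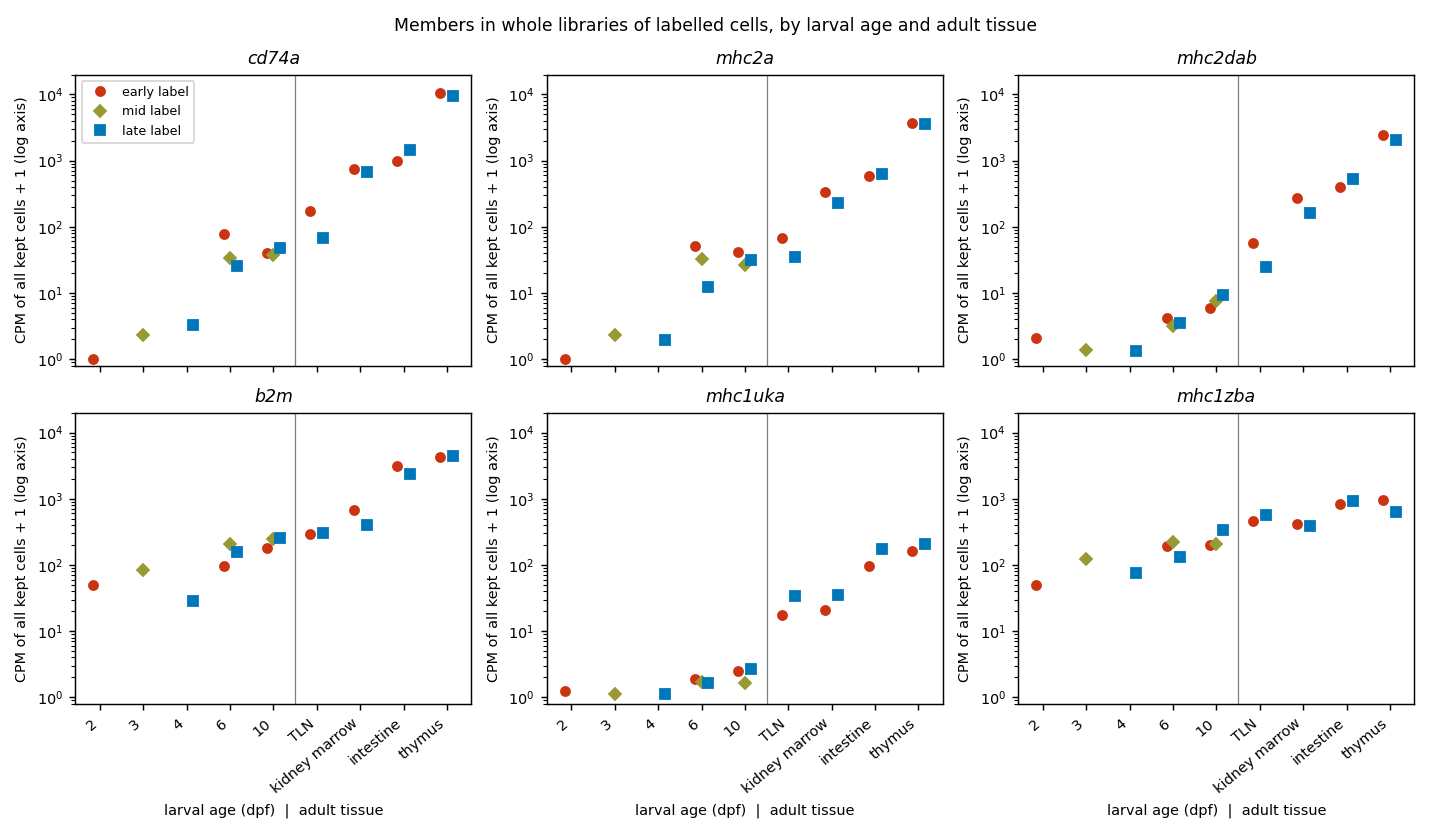
Levels of cd74a, mhc2a, mhc2dab, b2m, mhc1uka and mhc1zba over all kept cells of each library, as CPM + 1 on a log axis, by age in larvae and tissue in adults, with symbols for the early, mid and late label. The class II genes were at 0 to 2.24 CPM (cd74a and mhc2a) at 2 to 4 dpf, and thymus held the highest value of each gene under both labels except mhc1zba under the late label.

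In macrophages treated with R848, 4 class II members (mhc2a, mhc2dab, cd74a and cd74b) and the light chain gene b2ml were lower, and 7 members of the class I pathway were higher. Each condition had 1 library, so both genotypes served as blocks in an edgeR quasi-likelihood fit on UMIs summed per class and library. The p-values measure only the spread between these 4 libraries. With 1 residual degree of freedom, the fit borrows from other genes to estimate that spread for each gene. Of 24 members tested in macrophages, 7 were higher and 5 lower under R848 at an adjusted p under 0.05, where 18% of all 13762 genes tested were higher and 16.8% lower, so that the share of members lower was near that of all genes. The median log2 fold change was 0.27 over the members and 0.11 over all genes tested, so each change below stands relative to that shift. Macrophages themselves were more numerous under R848, with 1774 and 1121 cells in treated slc24a5 and rag1 crispants and 184 and 209 in untreated ones, and held a median of 21711.5 and 17467 UMIs per cell, against 11166 and 11722. Whether depth or cell number plays a part in the changes was not tested.

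Both invariant chain genes and the chains mhc2a and mhc2dab fell. In macrophages, cd74a had 63 and 89.6 CPM in R848-treated slc24a5 and rag1 crispants, against 141 and 227 CPM in the untreated ones, a log2 fold change of -1.66 ± 0.20, adjusted p = 0.000499 (SE, as for all fold changes here). Its paralog cd74b had 46.4 and 58.4 CPM with R848 and 167 and 215 CPM without (-2.27 ± 0.20, adjusted p = 0.000148). For both genes each treated library lay below each untreated one. The alpha chain mhc2a had 6.74 and 9.54 CPM with R848 and 32.2 and 42.3 CPM without (-2.61 ± 0.23, adjusted p = 0.000156), and mhc2dab had 16 and 16.3 CPM with R848 and 57.7 and 57.1 CPM without (-2.24 ± 0.21, adjusted p = 0.000194). Both chains separated the treatments fully as well. The activator ciita was near its detection limit, with 25 and 19 UMIs in treated and 1 and 7 in untreated macrophages, and was not called (-1.08 ± 0.87, adjusted p = 0.363). The fifth lower member was b2ml, with 319 and 395 CPM with R848 and 446 and 448 CPM without (-0.74 ± 0.18, adjusted p = 0.013).

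The 7 higher members all belonged to the class I pathway, of which other members did not pass or, as b2ml, were lower. The light chain gene b2m had 189 and 267 CPM with R848 and 78.3 and 48 CPM without (1.46 ± 0.29, adjusted p = 0.0078), so that its direction was opposite to that of b2ml. The U-lineage genes mhc1uba, with 51.1 and 70.2 CPM against 14.3 and 6.04 CPM (2.2 ± 0.39, adjusted p = 0.00557), and mhc1uka, with 10.7 and 14.9 CPM against 2.33 and 0.671 CPM (2.72 ± 0.55, adjusted p = 0.00588), rose most. The transporter subunit tap1 had 16.1 and 21 CPM with R848 and 4.26 and 3.36 CPM without (1.87 ± 0.36, adjusted p = 0.00459). The tapasin genes tapbp.1 (1.19 ± 0.27, adjusted p = 0.00948) and tapbp.2 (1.88 ± 0.51, adjusted p = 0.0205) and the L-lineage gene mhc1laa (1.35 ± 0.40, adjusted p = 0.0299) completed the 7. Of the 6 loading genes 3 thus rose, while tap2a (2.43 ± 0.92, adjusted p = 0.0704), tap2t (0.56 ± 0.44, adjusted p = 0.352) and canx (-0.47 ± 0.19, adjusted p = 0.0828) did not pass. The Z-lineage gene mhc1zba did not pass the test, with 216 and 305 CPM with R848 and 296 and 278 CPM without (-0.56 ± 0.20, adjusted p = 0.0591), and treated and untreated values overlapped.

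Macrophage clusters were unevenly shared between treatments. Clusters 8 and 29 held 639 and 266 cells of treated slc24a5 and 591 and 154 of treated rag1 crispants but 19 and 1, and 15 and 3, of the untreated ones, and cluster 43 (41 cells) came from treated rag1 crispants alone. In cluster 14, which held cells of all 4 libraries (669 and 271 with R848, 39 and 38 without), cd74a had 33.9 and 29.7 CPM with R848 and 83.6 and 119.6 CPM without, and mhc2a had 4.66 and 3.59 CPM with R848 and 19.6 and 21.6 CPM without. In cluster 27 (200 and 64 cells with R848, 125 and 153 without), cd74a had 32 and 6.89 CPM with R848 and 182 and 169 CPM without, and mhc2a had 2.46 and 3.45 CPM with R848 and 36.9 and 35.6 CPM without. Both genes were lower with R848 within each cluster, though treated cells of cluster 27 also held fewer UMIs, with means of 2029 and 4535 per cell against 10620.4 and 10643 untreated. All treated cells of cluster 27 together held only 405793 and 290223 UMIs in slc24a5 and rag1 crispants. Its treated mhc2a values and the lower of its cd74a values thus rest on very few UMIs. With clusters 14 and 27 fitted together, 14 of 22 members tested were called (7 higher, 7 lower), as were 5125 of all 11581 genes tested. Log2 fold changes were -2.51 for cd74a, -3.16 for mhc2a, -3.01 for cd74b and -2.34 for mhc2dab. That fit did not hold the mix of clusters fixed. Most treated cells in it came from cluster 14 and most untreated ones from cluster 27, where untreated cd74a and mhc2a were higher. Its fold changes thus also hold the difference between the clusters.

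**Figure D3:**
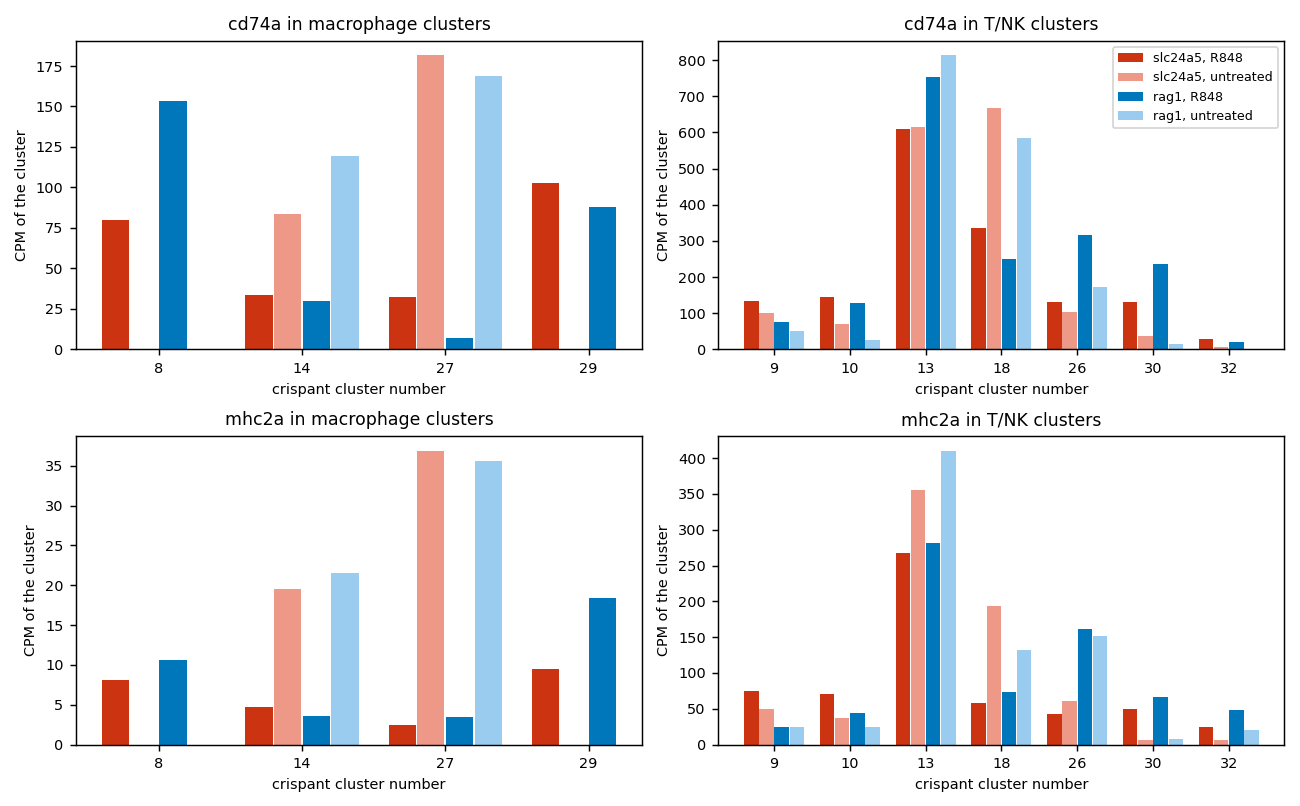
Levels of cd74a and mhc2a in CPM in the crispant clusters of macrophages and T/NK cells, with a bar for each library of at least 20 cells. Within macrophage clusters 14 and 27, R848-treated libraries stood below untreated ones for both genes, while T/NK cluster 13 was high in all 4 libraries.

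Over all T/NK cells, 10 of 26 members tested were higher and 0 lower under R848, where 15.5% of 13907 genes were higher and 10.9% lower. T/NK cells held a median of 2311 and 2883 UMIs in treated slc24a5 and rag1 crispants, against 5994 and 8751 in untreated ones. Their mix of clusters differed as well. Cluster 10 made up 31.4% and 16.9% of treated cells and 16.3% and 4.83% of untreated ones. Cluster 30 made up 1.31% and 4.51% of treated cells and 9.95% and 25.5% of untreated ones. Whether depth or mix plays a part in the changes was not tested. At an unadjusted p under 0.05 there were 12 members, beside 5324 of the 13907 genes, and DESeq2 called 4 members and 1179 genes. Within the class, cluster 18 alone gave 1 member higher and 5 lower of 18 tested, where 2169 of 9232 genes were called in either direction. In these cells b2m had 419.5 and 446 CPM in treated slc24a5 and rag1 crispants and 165 and 171 CPM in untreated ones (1.16 ± 0.16, adjusted p = 3.98e-05). Of the heavy chain genes, mhc1uba had 87.4 and 78.3 CPM with R848 and 20 and 17.4 CPM without (1.94 ± 0.15, adjusted p = 1.14e-07), and mhc1uka had 14.6 and 13.6 CPM with R848 and 2.7 and 2.9 CPM without (2.13 ± 0.27, adjusted p = 2.44e-05). The transporter genes tap1 (0.68 ± 0.16, adjusted p = 0.00499) and tap2a (1.56 ± 0.40, adjusted p = 0.00818) and the L-lineage genes mhc1lda (1.5 ± 0.51, adjusted p = 0.0374) and mhc1lia (2.08 ± 0.55, adjusted p = 0.0106) were also higher.

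Class II genes in T/NK cells rose modestly or did not pass. The chain mhc2dab had 72.5 and 95.3 CPM with R848 and 32.4 and 32.6 CPM without (1.15 ± 0.15, adjusted p = 3.18e-05), ciita had 29.7 and 41.7 CPM with R848 and 13.5 and 21.7 CPM without (0.84 ± 0.17, adjusted p = 0.00138), and cd74b had 215 and 316 CPM with R848 and 158 and 161 CPM without (0.50 ± 0.16, adjusted p = 0.0336). Neither mhc2a (0.19 ± 0.14, adjusted p = 0.334) nor cd74a (0.33 ± 0.16, adjusted p = 0.129) was called. Cluster 13, the T/NK cluster richest in class II message (led by tppp, fcer1g and ccr9a), made up 20.2% and 32.5% of treated T/NK cells against 6.04% and 14.2% of untreated ones, and its cd74a stood at 611 and 753 CPM with R848 and 614 and 813 CPM without. Its name rests on the fixed markers alone. The gene tppp also led a macrophage cluster of adult thymus, and cd74a in cluster 13 lay above that of the crispant macrophage class. Whether cluster 13 holds cells other than T/NK cells was not tested. Without cluster 13, 7 of 25 members tested were called, as were 3051 of 13264 genes. In that fit mhc2dab had a log2 fold change of 1.04 and ciita of 1.19. The genes cd74b (0.20) and mhc1lia (2.24, edgeR adjusted p = 0.0585) were no longer called, and mhc1lda gave no value. In cluster 18, led by ccl36.1 and nkl.1, cd74a was lower with R848 (335 and 249 CPM against 668 and 584 CPM), and in cluster 9 it was higher (133 and 76 CPM against 101 and 50.9 CPM). The chain mhc2a was lower with R848 in cluster 13 (267 and 282 CPM with R848, 356 and 411 CPM without) and in cluster 18 (57.9 and 73.3 CPM with R848, 194 and 132 CPM without), while the share of cluster 13 was larger with R848. Of the T/NK clusters, 3 held at least 50 cells in every library. Taken alone, cluster 9 gave 3 members higher and 0 lower of 23, where 202 of 10327 genes were called in either direction. Cluster 13 gave 1 higher and 0 lower of 19, where 636 of 8269 genes were called. Cluster 18 gave 1 higher and 5 lower of 18, where 2169 of 9232 genes were called, with cd74b at -1.03 (edgeR adjusted p = 0.000998).

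In neutrophils, 9 of 22 members tested were higher and 0 lower, where 10.8% of 12515 genes were higher and 5.61% lower. The largest change was that of mhc2dab, with 7.76 and 9.65 CPM in treated and 1.12 and 2.37 CPM in untreated slc24a5 and rag1 crispants (2.42 ± 0.32, adjusted p = 0.000336). Other members called were mhc1uba (1.58 ± 0.22, adjusted p = 0.000734), mhc1uka (1.47 ± 0.32, adjusted p = 0.00784), b2m (1.13 ± 0.14, adjusted p = 0.000266), tap1 (1.1 ± 0.20, adjusted p = 0.00262), mhc2a (0.80 ± 0.22, adjusted p = 0.0288), tapbp.2 (0.74 ± 0.22, adjusted p = 0.0364), cd74a (0.69 ± 0.17, adjusted p = 0.0146) and cd74b (0.63 ± 0.16, adjusted p = 0.0167). Levels of class II genes in neutrophils were low, and cd74a there had 36.8 and 39.3 CPM with R848 and 19.7 and 31.3 CPM without, beside 7.67 and 6.19 CPM with R848 and 3.29 and 1.18 CPM without in erythroid cells. The part of free RNA in these values was not tested. At an unadjusted p under 0.05 there were 13 members, beside 3876 of the 12515 genes, and DESeq2 called 3 members and 686 genes. In neutrophil cluster 31 alone, 0 of 19 members tested were called, where 1403 of 10070 genes were. The log2 fold changes of b2m (-0.16), mhc2a (-0.33), cd74a (-0.27) and cd74b (-0.28) were negative there.

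The difference in response between classes was tested in a joint fit, chosen after the data were seen. Macrophages minus T/NK cells gave 3 members with a higher and 6 with a lower R848 effect in macrophages of 26 tested, where 13.4% of genes were higher and 10% lower. For cd74a the difference was -1.92 ± 0.25, adjusted p = 0.000147, for mhc2a -2.74 ± 0.24, adjusted p = 7.22e-06, for cd74b -2.70 ± 0.25, adjusted p = 1.21e-05 and for mhc2dab -3.31 ± 0.25, adjusted p = 2.32e-06. The other lower members were ciita (-1.93 ± 0.65, adjusted p = 0.0422) and mhc1lda (-1.84 ± 0.42, adjusted p = 0.00575), and the higher ones tap1, tapbp.1 and mhc1laa. In macrophages ciita was near its detection limit, and mhc1lda gave no value in the T/NK fit without cluster 13. Macrophages minus neutrophils gave 1 higher and 6 lower of 24 (13.6% and 14.1% of genes), and macrophages minus HSPC-named cells gave 6 higher and 7 lower of 26 (18% and 13.7% of genes). Against fibroblast-like cells, 0 were higher and 10 lower of 25 (8.85% and 10.4% of genes). In all of these, cd74a, cd74b, mhc2a and mhc2dab were among the lower members, so the R848 effect on these 4 genes was lower in macrophages than in each class set against them. The effect on b2m did not pass in the test against T/NK cells (0.37 ± 0.28, adjusted p = 0.364).

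**Figure D4:**
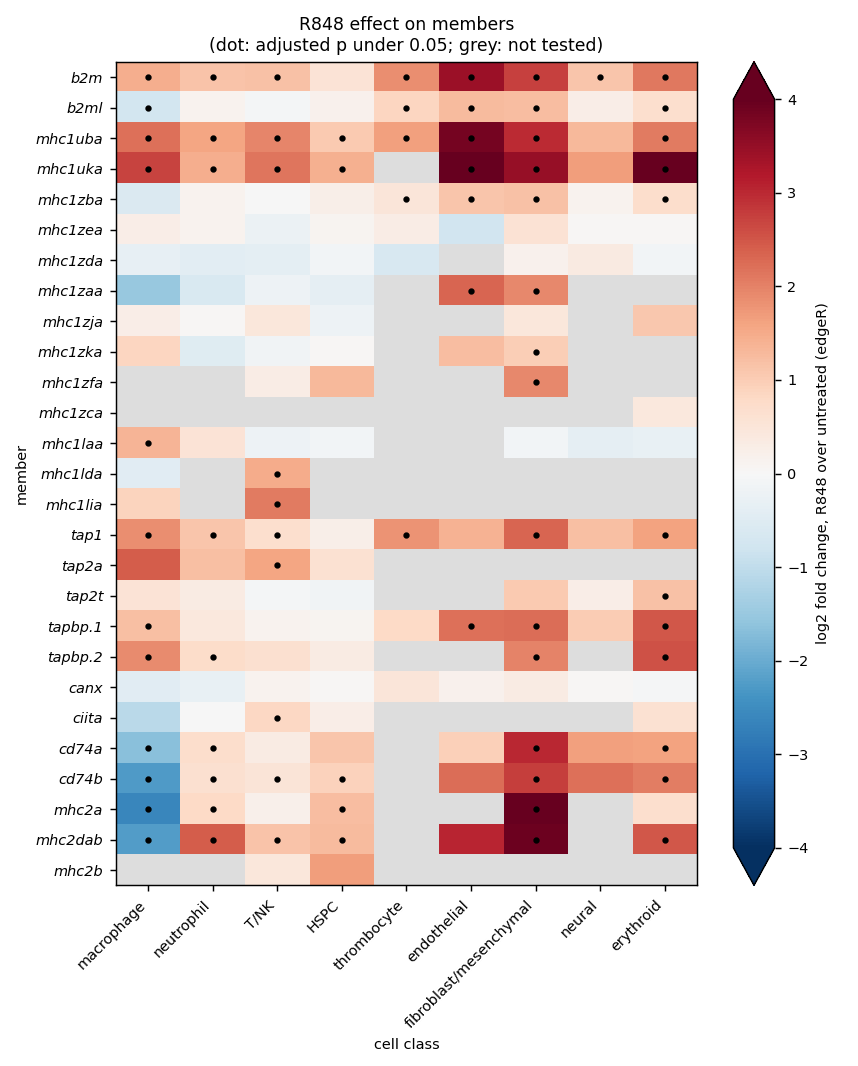
Heat map of log2 fold changes (R848 over untreated) of 27 members in 9 cell classes of crispants, with a dot where the adjusted p was under 0.05, grey where a member was not tested, and colour clipped at 4 in each direction. In macrophages, cd74a, cd74b, mhc2a and mhc2dab were lower while b2m, mhc1uba and mhc1uka were higher, and no member was called lower in the other 8 classes.

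Outside these classes every called member was higher under R848. In fibroblast/mesenchymal cells 15 of 21 members were called (4.84% of all genes higher, 2.82% lower). DESeq2 called 14 members there, beside 259 of 13236 genes. Their class II genes were almost at 0 without R848: mhc2a had 67 and 24 UMIs in treated and 5 and 2 in untreated slc24a5 and rag1 crispants (4.36 ± 0.46, adjusted p = 3.89e-07), and cd74a had 21.1 and 15.3 CPM with R848 and 1.73 and 2.91 CPM without (3.03 ± 0.31, adjusted p = 4.3e-07). Class I genes of these cells had more counts behind them, with b2m at 139 and 109 CPM against 17.5 and 18.7 CPM (2.72 ± 0.17, adjusted p = 6.24e-11). In endothelial cells 7 of 14 were called (3.3% higher, 1.49% lower), led in size by mhc1uka (4.35 ± 0.58, adjusted p = 0.00111), mhc1uba (3.82 ± 0.25, adjusted p = 1.02e-08) and b2m, which had 915 and 721 CPM with R848 and 80.9 and 77.3 CPM without (3.42 ± 0.19, adjusted p = 9.15e-10). The Z-lineage genes mhc1zaa (2.33 ± 0.27, adjusted p = 1.26e-05) and mhc1zba (1.12 ± 0.18, adjusted p = 0.000618) were called there too.

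Erythroid cells and thrombocytes also showed class I changes. In erythroid cells 12 of 20 members were called (5.13% higher, 2.26% lower), among them tapbp.1 with 17.7 and 31 CPM with R848 and 4.59 and 3.55 CPM without (2.47 ± 0.22, adjusted p = 2.6e-08). There mhc1uka had 24 and 35 UMIs with R848 and 0 in both untreated libraries, which allow up to 0.17 and 0.323 CPM beside 1.53 and 2.06 CPM with R848. Among the erythroid calls, b2m had 35.6 and 39.5 CPM with R848 and 12.2 and 5.17 CPM without (2.12 ± 0.24, adjusted p = 2.08e-05). The part of free RNA in these erythroid values, those of tapbp.1 and mhc1uka included, was not tested. In thrombocytes 5 of 9 were called (4.02% higher, 1.04% lower), namely b2m (1.85 ± 0.17, adjusted p = 9.85e-25), tap1, mhc1uba, b2ml and mhc1zba (0.49 ± 0.14, adjusted p = 0.0178). Neural cells gave 1 of 14, b2m (1.1 ± 0.25, adjusted p = 0.0166; 0.845% higher, 0.415% lower). With DESeq2 the counts were 9 in erythroid cells, 2 in thrombocytes and 0 in neural cells. All genes called with it were 252 of 12285, 22 of 6064 and 26 of 14201 in the same order.

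In HSPC-named cells, 5 of 24 members were called, all higher (3.62% of all genes higher, 1.23% lower), and DESeq2 called 5, beside 244 of 12676 genes. The chain mhc2a had 67 and 63.4 CPM in treated slc24a5 and rag1 crispants and 34.6 and 21 CPM in untreated ones (1.23 ± 0.17, adjusted p = 0.00524), and mhc2dab had 38.6 and 40.5 CPM with R848 and 19.8 and 12.5 CPM without (1.27 ± 0.19, adjusted p = 0.00707). The others were cd74b (0.92 ± 0.18, adjusted p = 0.0227), mhc1uba (1.04 ± 0.17, adjusted p = 0.00988) and mhc1uka (1.43 ± 0.18, adjusted p = 0.00375). The count was 14 at a finer clustering and 9 with a stricter cell filter. The calls over all genes rose too, from 615 of 12676 to 2492 of 12822 and 1397 of 13323 in these fits. Across the 9 classes, b2m was called higher in 8 (not in HSPC-named cells, 0.54 ± 0.14, adjusted p = 0.0558) and mhc1uba in 8 (not in neural cells, 1.3 ± 0.38, adjusted p = 0.101).

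Other genes of both pathways were followed as lists. Of 22 class I pathway genes outside the members (immunoproteasome subunits, proteasome activators, chaperones and peptidases of the endoplasmic reticulum, and regulators such as irf1b and stat1a), 15 of the 17 tested in macrophages were higher and 0 lower, with a median log2 fold change of 2.32 beside 0.11 over all genes. The immunoproteasome genes psmb8a (3.48 ± 0.26), psmb12 (3.53 ± 0.26), psmb13a (3.60 ± 0.34) and psmb10 (2.55 ± 0.22) were among them, all at an adjusted p under 0.05. T/NK cells had 15 higher and 1 lower (pdia3, -0.44 ± 0.15) of 18, with a median of 1.21 beside 0.02, and neutrophils had 16 higher of 18, with a median of 1.60. Numbers higher elsewhere were 13 of 18 in fibroblast-like, 11 of 16 in erythroid, 9 of 12 in endothelial, 7 of 17 in HSPC-named, 7 of 10 in thrombocyte and 3 of 10 in neural cells. Of the list of 16 class II pathway genes, 4 were higher and 3 lower of the 15 tested in macrophages, shares not far from the 18% and 16.8% of all genes. The lower ones were the endosomal proteases ctsl.1 (-3.09 ± 0.18), ctsla (-1.30 ± 0.15) and lgmn (-1.69 ± 0.20), and among the higher ones was rfxank (3.63 ± 0.55), part of the RFX complex on class II promoters. In T/NK cells 8 of those 15 were higher and 0 lower.

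The label of larval cells was tested over 6 and 10 dpf with age as a block. None of the members was called between early and late label by edgeR at an adjusted p under 0.05. The counts were 0 of 14 in macrophages (0.0889% of genes higher, 0.0889% lower) and 0 of 23 in T/NK cells (0.815% higher, 0.504% lower). They were 0 of 10 in neutrophils (2.47% higher, 1.63% lower) and 0 of 6 in thrombocytes (0.219% higher, 0.373% lower). At an unadjusted p under 0.05 there were 3, 7, 1 and 3 members in the same order. Of all genes tested, 715 of 8997, 1381 of 10308, 1394 of 7800 and 517 of 4563 passed that unadjusted threshold. DESeq2 called 0 in each class as well. In macrophages cd74a had 36.8 and 19.9 CPM at 6 and 10 dpf with the early label, 40.2 and 26 CPM with the mid label and 37.3 and 62.3 CPM with the late label (early over late -0.81 ± 0.45, adjusted p = 0.715). At 6 dpf early and late values were nearly equal and at 10 dpf the late one was higher. In T/NK cells cd74b had 32.6 and 37.3 CPM with the early label, 52.7 and 41.4 CPM with the mid label and 71.7 and 72 CPM with the late label (-1.1 ± 0.27, adjusted p = 0.0721), and mhc1uba had 20.1 and 44.9 CPM with the early, 31 and 35.3 CPM with the mid and 62.6 and 67.5 CPM with the late label (-1.14 ± 0.31, adjusted p = 0.103). The late label and its Cell Ranger version cannot be told apart here.

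Age, as 10 dpf against 6 dpf, tested over the 3 labels, gave a call in T/NK cells and another in thrombocytes. In T/NK cells mhc2dab had 6.29, 5.77 and 13.7 CPM at 10 dpf in the early, mid and late label, against 1.66, 1.91 and 1.67 CPM at 6 dpf (2.34 ± 0.47, adjusted p = 0.0198; 1 of 23 members, where 2.9% of genes were higher and 0.369% lower). The 10 dpf values lay above the 6 dpf values in every pair. In thrombocytes b2m had 168, 225 and 248 CPM at 10 dpf and 101, 78.1 and 147 CPM at 6 dpf (1.21 ± 0.27, adjusted p = 0.00698; 1 of 6 members, where 2.45% of genes were higher and 0.307% lower). Of the T/NK members, mhc2a (1.36 ± 0.39, adjusted p = 0.112) and cd74a (1.09 ± 0.27, adjusted p = 0.0542) did not pass. Macrophages gave 0 of 14 (0.0111% of genes higher, 0% lower) and neutrophils 0 of 10 (1.94% higher, 0.526% lower), and DESeq2 called 0 in both. At an unadjusted p under 0.05 there was 1 member in macrophages, beside 721 of all 8997 genes. Neutrophils had 5 members at that unadjusted threshold, beside 1189 of all 7800 genes. The mhc2dab call rests on few UMIs at 6 dpf, 8, 9 and 2 in the 3 libraries, and was lost with libraries thinned to equal depth.

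Between early and late label in adults, tested with tissue as a block, calls were confined to Z-lineage heavy chains in 2 of the 5 classes fitted. In T/NK cells mhc1zfa had 11, 11.7, 21.8 and 37.3 CPM in kidney marrow, intestine, thymus and TLN with the early label and 2.13, 6.54, 3.09 and 6.9 CPM with the late label (2.14 ± 0.30, adjusted p = 0.0104; 1 of 26 members, where 0.343% of genes were higher and 0.229% lower). All early values exceeded all late ones. In B cells mhc1zda had 14.4 and 10.0 CPM in kidney marrow and thymus with the early label and 41 and 79.7 CPM with the late label (-1.91 ± 0.36, adjusted p = 0.0259; 1 of 21 members, where 0.335% were higher and 0.486% lower). Macrophages gave 0 of 24 (0.04% of genes higher, 0.0899% lower), neutrophils 0 of 24 (0.186% higher, 0.082% lower) and erythroid cells 0 of 26 (0% higher, 0% lower). At an unadjusted p under 0.05 there were 7, 4 and 5 members in the same order. Of all genes tested, 716 of 10008, 566 of 13409 and 1275 of 14797 passed that unadjusted threshold. DESeq2 called 0 members in these 3 classes and in B cells, and 3 in T/NK cells, where it called 145 of 12250 genes. The mhc1zfa call was lost with libraries thinned to equal depth (1.96) and held with each tissue left out in turn (1.92 to 2.61).

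The same heavy chains kept their direction across cell classes. Early and late label could be set side by side in 15 sums of 1 class in 1 tissue. These sums came from 8 libraries, and classes of 1 library share fish and free RNA, so they are not 15 independent observations. The part of free RNA in the values of any class, erythroid cells included, was not tested. The gene mhc1zfa was higher with the early label in 15 of 15, as were 0.143% of features with at least 100 UMIs, and mhc1zda, mhc1zaa and mhc1uka were lower with the early label in 15 of 15, as were 0.429% of those features. In erythroid cells of kidney marrow and TLN, for instance, mhc1zfa had 0.513 and 1.59 CPM with the early label and 0.103 and 0.28 CPM with the late label, and mhc1zda had 3.59 and 6.02 CPM with the early label and 10.4 and 14.9 CPM with the late label. The genes mhc1zja, mhc1zea and tapbp.2 were lower with the early label in 14 of 15. The gene mhc1zca, named here after its values were seen, had 0.059, 0.194, 0.135 and 0.27 CPM over all kept cells of kidney marrow, intestine, thymus and TLN with the early label and 0.8, 3.33, 4.49 and 0.941 CPM with the late label, and was not called in T/NK cells (-3.72 ± 0.72, adjusted p = 0.0548). In contrast, of the class II genes, mhc2a and cd74a were each higher with the early label in 5 of 15. Label and fish cannot be told apart in these adult libraries.

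**Figure D5:**
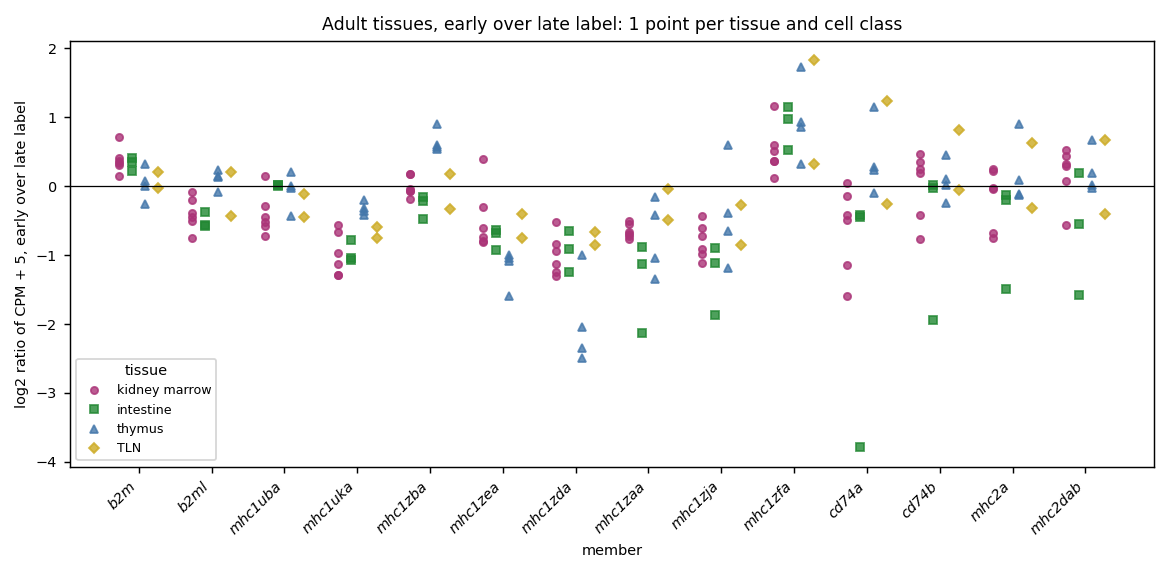
Log2 ratio of CPM + 5 between early and late label for 14 members in adults, with 1 point per class and tissue (15 sums) and 0 marking equal levels. The 15 points of mhc1zfa lie above 0 and all 15 of mhc1zda, mhc1zaa and mhc1uka below it, whereas mhc2a and cd74a lie on both sides.

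Few other genes of the pathways were called between labels. In adult T/NK cells 1 of 18 class I pathway genes was called, the immunoproteasome subunit psmb9a, higher with the early label (1.00 ± 0.18), and 0 of 15 class II pathway genes. In larval neutrophils irf1b was higher with the early label (2.14 ± 0.43; 1 of 10), and ctsl.1 was higher at 10 dpf (1.83 ± 0.34; 1 of 12). In the remaining label and age fits, 0 genes of either list were called.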

How the data were processed

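Single-cell 3' libraries (10x, kit version 3.1 for larvae, 4 for crispants and adults) were deposited by the authors as UMI counts per gene and cell, made with Cell Ranger 7.0.1, 7.1.0, 8.0.1 or 9.0.0, per the file headers. The submitters' processing notes name versions 7.0.1 and 8.0.1 and the genome build GRCz11. The counts are not normalized. Library totals ranged from 8303823 to 150042529 UMIs.

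Cells with at least 500 UMIs, 200 genes and at most 20% mitochondrial UMIs were kept. Cells most like simulated doublets were removed, 14529 in all (7.25%), at 0.8% (kit version 3.1) or 0.4% (kit version 4) per 1000 cells. Cells were clustered per stage or tissue on 2000 variable genes without the members (40 principal components, 20 neighbours, Leiden resolution 1, igraph 0.11.9, Python 3.11.15). Clusters were named from fixed markers, with at least 3 detected, by thresholds set after the data were seen. T-lineage and NK or innate lymphoid clusters were merged. Levels are UMIs of a class in a library per 1000000 UMIs of that class (CPM). Classes with at least 50 cells in every library compared were summed per library and fitted with edgeR 4.0.16 (R 4.3.3; TMM scaling, quasi-likelihood test, Benjamini-Hochberg adjustment over all genes). The blocks were genotype for R848, age or label for larvae and tissue for adults, which left 1 to 3 residual degrees of freedom. Since each condition had 1 library, p-values measure only the spread between these libraries, which may be technical. The fit estimates that spread, and so the SE, for each gene with information borrowed from other genes. A very small p-value thus does not stand for replication of a condition. Poisson intervals (95%) and limits for a count of 0 (3 counts) cover counting error only.

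The members and pathway lists were chosen with earlier results of these data known. Named genes were the 11 members outside the mhc1 and mhc2 symbols, the mhc1 and mhc2 members with most UMIs, every member called, and up to 4 examples per pathway list. On simulated counts for the R848 macrophage fit (13662 genes), 14% of genes changed 2-fold and 82% of those changed 4-fold were recovered, with 8 false calls. The simulated dispersion was fixed in advance, the same for all genes and not taken from the data. These shares need not hold for the real fit. Alternatives were DESeq2 1.42.0, RLE scaling, no filter on low counts, a stricter cell filter (1000 UMIs, 500 genes, 10%), doublets kept, Leiden resolution 2, members among the variable genes, thinning to the smallest library, single clusters and leaving out tissues or genotypes. Coordinates and sequences were not used here.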

Additional observations from a re-analysis of the deposited data

Results flagged for a closer look

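For some class II genes the fitted effect of R848 had opposite signs in macrophages and in T/NK cells or neutrophils, each class as a whole, and a joint edgeR fit tested the difference itself. Against T/NK cells, mhc2dab changed by -2.24 in macrophages and 1.15 in T/NK cells on the log2 scale (difference -3.31, adjusted p = 2.32e-06), and cd74b by -2.27 in macrophages and 0.50 in T/NK cells (difference -2.70, adjusted p = 1.21e-05). Against neutrophils, mhc2dab changed by -2.24 in macrophages and 2.42 in neutrophils (difference -4.66, adjusted p = 1.09e-08), and mhc2a by -2.61 in macrophages and 0.80 in neutrophils (difference -3.44, adjusted p = 2.38e-08). For cd74a the changes were -1.66 in macrophages and 0.69 in neutrophils (difference -2.39, adjusted p = 4.32e-08), and for cd74b -2.27 in macrophages and 0.63 in neutrophils (difference -2.93, adjusted p = 7.36e-09). Each fit rests on 4 libraries, with every treated macrophage library below every untreated one for these 4 genes. Over all T/NK cells mhc2a and cd74a were not called. T/NK cluster 18 alone gave 1 member higher and 5 lower of 18, where 2169 of 9232 genes were called, with cd74b at -1.03. In neutrophil cluster 31 alone, mhc2a, cd74a and cd74b were not higher with R848.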

How the results depend on the processing

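Each result was recomputed with 1 choice changed, except that values from single pairs of libraries change both the libraries and the measure. Of the single-gene values, 698 kept direction and, where a threshold applied, their side of it, 69 lost the call and 8 changed sign. Among the 698 are 31 values from slc24a5 and 31 from rag1 crispants alone, for which only the sign was compared. Of the counts of members called or past 2-fold, 166 stayed within 1.5 times and 54 did not. Alternatives for HSPC-named, neural, thrombocyte, fibroblast-like, endothelial and erythroid cells, for B cells, for larval neutrophils and thrombocytes and for age in T/NK cells, and all single-cluster fits, were chosen after seeing the data. The causes of these changes were not tested.

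Under R848, cluster 27 alone gave 6 calls of 12 members tested, against 12 of 24 in all macrophages. All genes called were 1104 of 7096 in cluster 27 and 4782 of 13762 in all macrophages. The T/NK count of 10 became 4 with DESeq2, 3 in cluster 9, 1 in cluster 13 and 6 in cluster 18. All genes called went from 3665 of 13907 to 1179 of 13907, 202 of 10327, 636 of 8269 and 2169 of 9232 in the same order. The 10 T/NK members were all higher, whereas 5 of the 6 in cluster 18 were lower and 1 higher. Values of changed sign were ciita at -0.58 and mhc1lda at -0.13 in cluster 13 and tap1 at -0.0495 and cd74b at -1.03 in cluster 18. The neutrophil count of 9 became 3 with DESeq2, 1 in cluster 24, 1 in cluster 25 and 0 in cluster 31, where b2m (-0.16), mhc2a (-0.33), cd74a (-0.27) and cd74b (-0.28) were negative. All genes called went from 2049 of 12515 to 686 of 12515, 123 of 7586, 182 of 4932 and 1403 of 10070 in the same order. The count of 5 in HSPC-named cells became 8 with no filter on low counts, 9 with the strict cell filter and 14 at Leiden resolution 2. All genes called there went from 615 of 12676 to 1447 of 23177, 1397 of 13323 and 2492 of 12822. The count of 1 in neural cells became 0 with DESeq2, 0 with the strict filter, 2 with doublets kept and 0 when thinned. Neural genes called went from 179 of 14201 to 26 of 14201, 80 of 14177, 325 of 14759 and 113 of 13246. The count of 5 in thrombocytes became 2 with DESeq2 and 1 with the strict filter, where all genes called went from 307 of 6064 to 22 of 6064 and 6 of 5919.

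With no filter on low counts, early against late label gave 1 call in larval macrophages, 3 in larval T/NK cells, 1 in larval neutrophils, 2 in adult macrophages, 5 in adult T/NK cells, 2 in adult B cells and 1 in adult erythroid cells. All genes called were 152 of 20864, 589 of 22200, 561 of 20362, 140 of 21267, 410 of 24214, 170 of 19796 and 301 of 24189 in the same order. Larval T/NK cells gave 1 when thinned, where 93 of 6561 genes were called. Adult macrophages gave 1 without the intestine, where 37 of 11281 genes were called. Adult T/NK cells gave 3 with DESeq2, 2 with the strict filter, 2 with doublets kept, 2 with members among the variable genes, 0 when thinned and 2 without the TLN. All genes called there were 145 of 12250, 47 of 12772, 76 of 12503, 72 of 12319, 38 of 9893 and 53 of 12842 in the same order. Adult B cells gave 0 with DESeq2 and 2 with the strict filter, where 13 of 9255 and 193 of 9272 genes were called. For 10 against 6 dpf, neutrophils gave 1 with no filter on low counts, 1 with the strict filter and 1 at Leiden resolution 2, and T/NK cells gave 6 with no filter, 4 with DESeq2, 2 with the strict filter, 3 with doublets kept, 2 at Leiden resolution 2, 2 with members among the variable genes and 0 when thinned. All neutrophil genes called were 453 of 20362, 204 of 6983 and 221 of 6987 in the same order. For T/NK cells they were 783 of 22200, 337 of 10308, 259 of 8050, 309 of 8017, 273 of 8082, 283 of 10812 and 176 of 6561.

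Members past 2-fold under R848, from single pairs of libraries on log2(CPM + 5), which lowers the ratios of genes with few UMIs, were 8 in slc24a5 crispants against 14 in the joint fit for macrophages, 4 in slc24a5 and 4 in rag1 crispants against 7 for T/NK cells, and 1 in slc24a5 and 2 in rag1 crispants against 6 for neutrophils. Between labels they were 2 at 6 dpf against 5 for larval macrophages, and 2 at 6 dpf and 2 at 10 dpf against 7 for larval T/NK cells. Between ages they were 0 with the early label against 2 for larval macrophages. The share of all genes past 2-fold was not counted, so these counts say nothing particular about the members.

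The median of all genes in the R848 macrophage fit was 0.11 (log2) with TMM scaling, 0.08 with RLE scaling and 0.50 with no filter on low counts. Leiden resolution 2 gave no value for larval macrophages. No paired analysis was possible because each group had 1 library and so no replicate numbers to pair; genotype, age, label or tissue entered the fits as blocks. Few cells stood behind the intestinal macrophages (80 and 98 cells), and the 7 members under 100 UMIs could not be compared.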

Other observations

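Adult neutrophils, described here as levels only, carried class II message above that of erythroid cells of the same tissue and label, though only slightly in late-labelled kidney marrow. Class II chains had 94.6 and 612 CPM in neutrophils of early-labelled kidney marrow and thymus and 87.5 and 344 CPM in late-labelled ones, beside 45.7 and 76.1 CPM in erythroid cells of early- and late-labelled kidney marrow. Erythroid cells of early-labelled thymus had 143 CPM, and late-labelled thymus held only 18 erythroid cells, too few to compare. Thymic neutrophils lay above those of kidney marrow under each label, in the tissue with the most class II message over all cells. The Z-lineage sum in the same neutrophils was 580.0 and 671 CPM with the early label and 643 and 565 CPM with the late label, so that its values lay close together. In larval unnamed cluster 23, the invariant chain had 1591 and 1491 CPM with the early label, 711 and 872 CPM with the mid label and 782 and 1027 CPM with the late label at 6 and 10 dpf.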
